A study of Rattus norvegicus with 4 samples.

Results

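Cercam and 9 genes for the enzymes, chaperone and cross-linking oxidase that modify collagen were examined in the RNA-seq of rat Schwann cells (SCs), the glia that ensheathe and myelinate peripheral axons. The set holds Cercam, Colgalt1, Colgalt2, Plod1, Plod2, Plod3, P4ha1, P4ha2, Serpinh1 and Loxl2, picked by gene symbol from a count table of 17949 genes. Cercam entered because its level fell between the groups compared here. The others entered for their known function, but the set was drawn up with earlier results of these data known. Shares set beside those of all genes are therefore a description. Of the 10 genes, 9 have a row in the table and all 9 passed the low-count filter. Colgalt2 has no row under its symbol or its older symbols and was not analysed here.

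The cells are primary cultures from sciatic nerve, grown in 10% serum with 4 μM forskolin and 5 ng/ml of heregulin, and each sample is RNA of cells collected 48 h after lentiviral infection at 2 units per cell. Lenti-AS (n = 2) carries the antisense RNA of the Egr2 promoter (Egr2-AS), and Lenti-GFP (n = 2) is the control virus with a green fluorescent protein. The vector that carries the Egr2-AS has a red fluorescent reporter, so the reporter differs between the groups as well, and the Egr2-AS itself has no row in the table. The sources used here give neither strain nor age, and the samples are called biological replicates without a statement on whether they came from separate animals.

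Collagen chains are modified before they fold. Prolyl 4-hydroxylase, a complex of an alpha subunit (P4ha1, P4ha2) with the disulfide isomerase P4hb, hydroxylates prolines and so stabilises the triple helix. Lysyl hydroxylases (Plod1, Plod2, Plod3) make hydroxylysine, to which Colgalt1 and Colgalt2 attach galactose, and Cercam is a relative of these galactosyltransferases for which no such activity is known. The chaperone Serpinh1 (Hsp47) binds the folded procollagen, and after secretion lysyl oxidases such as Loxl2 start the cross-links between chains. SCs secrete collagens into their basal lamina and the surrounding matrix.

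For the genes the results turn on, the 250 bases before the transcription start are shown first, from RefSeq on the GRCr8 assembly, which is not the rn6 assembly of the counts. The promoter table held 9 of the 10 genes. Cercam and Colgalt1, the members of the galactosyltransferase family with a row, are printed with each GC box (GGGCGG, either strand) in capitals. The windows are chr3:33541267-33541516 (+ strand) for Cercam and chr16:18353529-18353778 (+ strand) for Colgalt1.
Cercam: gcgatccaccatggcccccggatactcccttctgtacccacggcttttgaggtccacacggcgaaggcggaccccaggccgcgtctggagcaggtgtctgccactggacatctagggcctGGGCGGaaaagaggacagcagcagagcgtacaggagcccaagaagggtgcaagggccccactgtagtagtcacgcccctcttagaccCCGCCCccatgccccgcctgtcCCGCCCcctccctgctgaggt
Colgalt1: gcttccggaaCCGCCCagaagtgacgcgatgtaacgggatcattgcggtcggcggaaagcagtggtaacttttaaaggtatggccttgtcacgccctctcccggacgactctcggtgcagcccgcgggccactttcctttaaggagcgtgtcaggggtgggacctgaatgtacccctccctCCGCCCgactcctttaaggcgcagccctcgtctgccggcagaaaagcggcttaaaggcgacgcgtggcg
The Cercam window holds 3 GC boxes and the Colgalt1 window 2, and 30.5% of the 33469 promoters in the table hold at least 1. Of the 9 windows, 7 hold a GC box, with 4 in that of Plod1, so the box is not particular to this pair. Cercam spans bases 33515513 to 33553817 of chromosome 3, and the start used for its window lies 26004 bases inside that span, so other transcripts of the gene start elsewhere. G and C make up 66.0% of its window, against a median of 51.2% over all promoters. The share of 30.5% is not matched for G and C content.

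Plod2 and P4ha2 are shown because, among the 8 measured genes other than Cercam, they had the lowest fitted log2 fold changes. Capitals mark the letters ACGTG on either strand, the core of the element bound by hypoxia-inducible factors, to which both genes are known to respond. The windows are chr8:101964068-101964317 (+ strand) for Plod2 and chr10:38743644-38743893 (+ strand) for P4ha2.
Plod2: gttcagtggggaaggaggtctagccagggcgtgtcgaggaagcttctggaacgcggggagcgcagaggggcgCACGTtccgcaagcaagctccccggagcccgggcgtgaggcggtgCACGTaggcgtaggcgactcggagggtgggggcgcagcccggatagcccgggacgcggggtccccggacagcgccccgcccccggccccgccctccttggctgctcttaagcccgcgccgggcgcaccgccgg
P4ha2: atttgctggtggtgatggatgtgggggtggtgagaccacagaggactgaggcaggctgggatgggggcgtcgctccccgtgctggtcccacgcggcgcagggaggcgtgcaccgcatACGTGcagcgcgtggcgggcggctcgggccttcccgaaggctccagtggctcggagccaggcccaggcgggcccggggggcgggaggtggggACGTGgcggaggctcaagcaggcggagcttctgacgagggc
Each of these windows holds the letters at 2 places, and 16.6% of all promoters hold at least 1. The other 7 windows hold none, among them those of Plod1 and P4ha1. The start used for P4ha1 lies 60350 bases inside the span of that gene. Other transcripts of P4ha1 thus start elsewhere, and the bases before those starts were not searched. G and C make up 74.8% of the Plod2 window and 72.4% of the P4ha2 window, against a median of 51.2% over all promoters. The share of 16.6% is not matched for this, and a role of the letters in the levels was not tested. The capitals do not overlap a GC box. Other motifs were searched on both strands. The CCAAT box was found in 34.0% of all promoters and the TATA box, read as TATAAA, in 12.9%, and of the 9 windows Colgalt2 alone held them. The EGR motif, read as GCGNGGGCG, was found in 4.29% of all promoters and in Plod3 alone of the 9, and it can share letters with a GC box. The AP-1 motif, read as TGANTCA, was found in 6.34% of all promoters and the YY1 motif, read as CCATNTT, in 13.8%, and both were in none of the 9.

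Total counts ranged from 74024323 to 96185890 per sample. Levels are given as CPM, the counts of a gene per 1000000 counts of the TMM-scaled library. After removal of low-count genes (fewer than 2 samples with 10 counts or more), 12446 genes were compared by the quasi-likelihood test of edgeR, whose standard error (SE) and adjusted p are given below. A gene was called at an adjusted p (Benjamini-Hochberg over all genes tested) under 0.05 and a fold change of at least 1.3, the study's cut-offs. SC markers were abundant in every sample (summed over 11 of 12 marker genes with a row, 10289 to 10417 CPM in Lenti-GFP and 10824 to 11845 CPM in Lenti-AS). Lenti-AS 1 and Lenti-AS 2 stood apart from each other in some genes. Sox10, the transcription factor that specifies SCs, had 163 and 61.2 CPM in them, and globin genes together had 3453 CPM in Lenti-AS 2 and at most 10.9 CPM elsewhere. With the globin genes left out of the fit, the log2 fold change of Plod2 was -0.46 and it was still called. CPM values are not corrected for transcript length, so levels are compared between samples and not between genes, and in these bulk samples a smaller number of expressing cells cannot be told apart from less RNA per cell.

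Cercam had 1184 and 1303 counts in Lenti-GFP, 123 and 127 in Lenti-AS. As CPM these are 12.7 and 13.7 under Lenti-GFP, 1.40 and 1.69 under Lenti-AS. The groups were far apart, with 10.99 CPM between their nearest samples, while replicates differed by 1.06 CPM (Lenti-GFP) and 0.286 CPM (Lenti-AS). Mean levels of 13.2 ± 0.752 CPM for Lenti-GFP (SD, n = 2) and 1.55 ± 0.202 CPM for Lenti-AS (SD, n = 2) gave a fitted log2 fold change of -3.10 with an SE of 0.15. Lenti-GFP was thus 8.56-fold higher, and of the genes tested 2 had a lower log2 fold change. Because this fall is what chose the set, it is given as a description and no test is reported for it. The fits without 1 of the samples gave log2 fold changes from -3.23 to -2.97, and those with other scalings, filters and tests from -3.10 to -3.06.

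Colgalt1, the main collagen galactosyltransferase of most tissues, did not share this difference. It had 233 and 240 CPM in Lenti-GFP against 220 and 230 CPM in Lenti-AS, so the groups were separated by only 2.87 CPM, less than the 7.37 and 9.28 CPM between replicates. Its log2 fold change was -0.07 (SE 0.05, 95% interval -0.20 to 0.06, edgeR adjusted p = 0.483), which puts the level in Lenti-AS between 0.869 and 1.04 times that in Lenti-GFP. Of the reads counted on Cercam and Colgalt1 together, Cercam took 5.17% (95% Wilson interval 4.89 to 5.47) and 5.42% (5.14 to 5.71) in the Lenti-GFP samples. In the Lenti-AS samples it took 0.633% (0.531 to 0.754) and 0.730% (0.614 to 0.868). The Wilson intervals, here and below, cover counting error only, unlike the 95% intervals of log2 fold changes, which come from the edgeR fit.

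**Figure D1:**
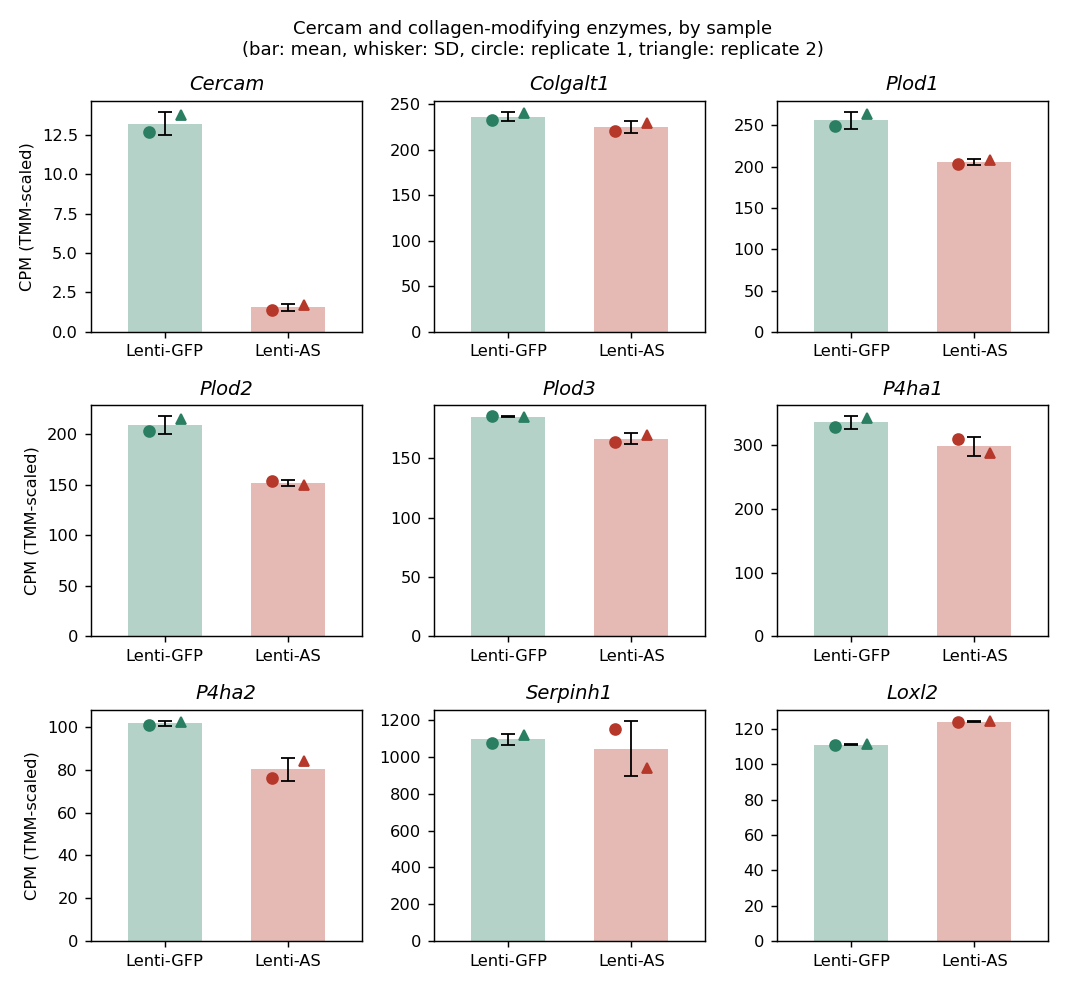
Normalised level (CPM, vertical axis from 0) of the 9 measured genes in the Lenti-GFP and Lenti-AS samples, with the mean as a bar, the SD as a whisker, replicate 1 as a circle and replicate 2 as a triangle. Cercam drops from 12.7 and 13.7 CPM to 1.40 and 1.69 CPM, Plod2 lies lower in both Lenti-AS samples, and the Serpinh1 samples overlap.

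Among the 8 measured genes other than Cercam, 1 was called, Plod2, against 1.98% of all genes tested in either direction and 0.667% in the lower direction. The fitted level was lower in Lenti-AS for 7 of the 8, where 48.7% of all genes were lower, and their median log2 fold change was -0.16 against 0.0071 over all genes tested. The groups did not overlap for 7 of the 8, against 54.9% of all genes, and for 6 of them Lenti-AS was the lower group, against 27.2%. At an unadjusted p under 0.05 stood 6 of the 8 (21.8% of all genes), 5 of them lower (9.37%) and Loxl2 higher. Each of the 8 had at least 6329 counts in every sample. The shares over all genes include genes with far fewer counts and are not matched for level.

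Plod2, the lysyl hydroxylase that acts on the end regions of the chains and sets the type of cross-link, fell in Lenti-AS. It had 203 and 215 CPM in Lenti-GFP against 154 and 149 CPM in Lenti-AS. The nearest samples of the groups were 48.9 CPM apart, and replicates 12.2 CPM (Lenti-GFP) and 4.73 CPM (Lenti-AS). The log2 fold change was -0.46 (SE 0.06, edgeR adjusted p = 0.0270), a fall by 27.4%. The call was lost without Lenti-GFP 1 (log2 fold change -0.50, adjusted p = 0.291) and without Lenti-GFP 2 (-0.42, adjusted p = 0.445), edgeR fits of 3 samples that called 1 gene each among all tested, and over the alternatives the adjusted p ran from 8.19e-09 (DESeq2) to 0.445. With the replicate number as a block it was also lost (-0.46, edgeR adjusted p = 0.0877). At a limit of 1.5-fold Plod2, at 1.38-fold, would not be called.

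Plod1, which hydroxylates lysines within the helix, had 249 and 263 CPM in Lenti-GFP against 203 and 208 CPM in Lenti-AS. The groups did not overlap, with 40.7 CPM between the nearest samples and at most 14.6 CPM between replicates. The log2 fold change of -0.32 (SE 0.06, 95% interval -0.45 to -0.18) missed the threshold, with an edgeR adjusted p = 0.0543 and a level 19.7% lower. DESeq2 gave an adjusted p = 0.000134 for Plod1, and over its alternatives the adjusted p ran from 0.000132 to 0.610, always with a change smaller than 1.3-fold.

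Plod3, a lysyl hydroxylase that also adds sugars to collagen, had 185 CPM in each Lenti-GFP sample against 163 and 170 CPM in Lenti-AS. Its log2 fold change was -0.15 (SE 0.05, edgeR adjusted p = 0.175). The mix of lysyl hydroxylase reads was compared as well. Of all Plod reads, Plod2 took 31.8% (95% Wilson interval 31.5 to 32.2) and 32.4% (32.0 to 32.8) in Lenti-GFP and 29.6% (29.2 to 30.0) and 28.3% (27.9 to 28.8) in Lenti-AS. Plod3 took 29.1% (28.7 to 29.5) and 27.9% (27.6 to 28.3) in Lenti-GFP and 31.4% (31.0 to 31.8) and 32.2% (31.8 to 32.7) in Lenti-AS. Neither share overlapped between the groups, while the share of Plod1 stayed between 39.0% and 39.7% in all 4 samples. For the Plod2 and the Plod3 share the exact permutation test (two-sided) gave p = 0.333, the smallest value that 2 samples against 2 allow.

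The alpha subunits of prolyl 4-hydroxylase both had lower fitted levels in Lenti-AS, and neither was called in the fit of all 4 samples. P4ha2 had 101 and 103 CPM in Lenti-GFP against 76.3 and 84.2 CPM in Lenti-AS, with 16.9 CPM between the groups and at most 7.90 CPM within them. Its log2 fold change was -0.34 (SE 0.07, 95% interval -0.52 to -0.17, edgeR adjusted p = 0.0755). DESeq2 gave P4ha2 an adjusted p = 0.000819 at a log2 fold change of -0.35, a change smaller than 1.3-fold. P4ha2 was called only in the fit without Lenti-AS 2, at a log2 fold change of -0.42 (edgeR adjusted p = 4.78e-06), and its adjusted p ran from 4.78e-06 to 0.640 over the alternatives.

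P4ha1, which supplies the major form of the enzyme in most cells, had 329 and 342 CPM in Lenti-GFP against 309 and 288 CPM in Lenti-AS. The gap of 19.7 CPM between the groups was smaller than the 21.3 CPM that separated the Lenti-AS replicates. The log2 fold change was -0.17 (SE 0.06, edgeR adjusted p = 0.187). P4ha2 took 23.5% (95% Wilson interval 23.1 to 23.9) and 23.1% (22.7 to 23.5) of the reads of both subunits in Lenti-GFP and 19.8% (19.4 to 20.2) and 22.6% (22.2 to 23.1) in Lenti-AS, so this share moved mainly in Lenti-AS 1.

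Serpinh1 was the most variable of these genes within a group. It had 1076 and 1119 CPM in Lenti-GFP against 1153 and 939 CPM in Lenti-AS, so 1 Lenti-AS sample lay above and the other below both controls. The log2 fold change was -0.07 (SE 0.10, 95% interval -0.31 to 0.18, edgeR adjusted p = 0.723) and its sign depended on 1 library, being 0.07 without Lenti-AS 2 and -0.22 without Lenti-AS 1. Serpinh1 is a heat shock gene. Of the 11 heat shock genes tested, 0 were called in either direction by edgeR, against 1.98% of all genes, and 0 by DESeq2. The 1 with an unadjusted edgeR p under 0.05 was Hspa1a, against 21.8% of all genes. The median log2 fold change of the 11 was -0.02, which was 0.0080 with library totals.

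Loxl2, which oxidises lysines of secreted collagen, was the 1 measured gene with a higher fitted level. It had 111 CPM in each Lenti-GFP sample and 124 CPM in each Lenti-AS sample, with replicates that differed by less than 0.7 CPM and groups 12.4 CPM apart. The log2 fold change of 0.16 (SE 0.05, 95% interval 0.03 to 0.29) did not pass, with an edgeR adjusted p = 0.167. Its sign was positive in all 15 alternatives, from 0.16 to 0.19.

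**Figure D2:**
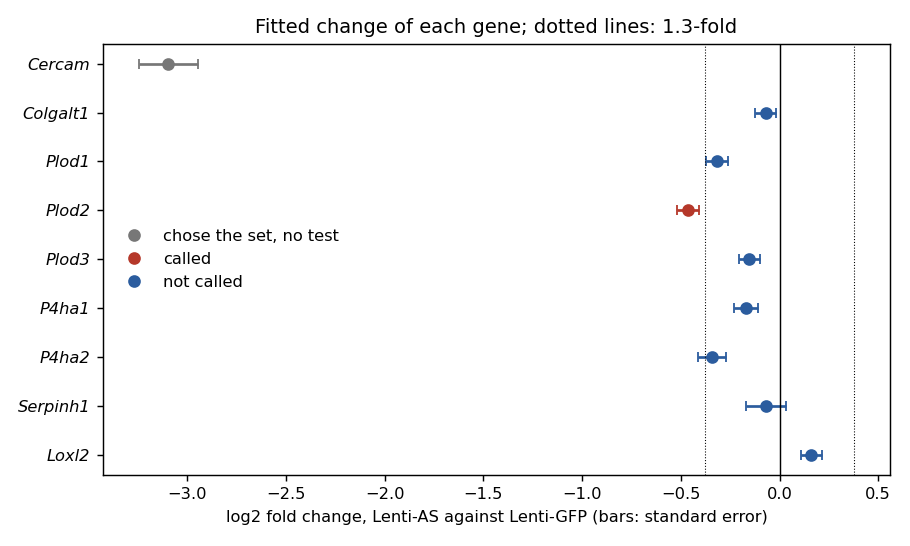
Fitted log2 fold change of each measured gene, Lenti-AS against Lenti-GFP, with its standard error as a bar and the 1.3-fold limits as dotted lines. Cercam (grey, not tested) lies at -3.10, Plod2 (red, called) at -0.46, and the 7 genes in blue, not called, between -0.34 and 0.16.

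To set these genes beside the rest of the pathway, 4 further lists of collagen maturation genes were examined, 35 genes of which 31 were tested. Of the 31, 1 was called, Adamts2, and it was lower, against 1.98% of all genes called in either direction. The fitted level was lower for 19 of the 31, against 48.7% of all genes, and their median log2 fold change was -0.13. Adamts2, the protease that removes the amino-terminal propeptide, had 16.8 and 16.3 CPM in Lenti-GFP against 10.8 and 11.1 CPM in Lenti-AS (log2 fold change -0.60, SE 0.08, edgeR adjusted p = 0.0368). The call was lost without Lenti-GFP 1, without Lenti-GFP 2 and with the replicate block.

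Among the other hydroxylases and their partners, 0 of 8 were called by edgeR, against 1.98% of all genes, and 0 by DESeq2. The 2 with an unadjusted edgeR p under 0.05 were Ppib and P4hb, both lower, against 9.37% of all genes. The list had a median log2 fold change of -0.19 that was -0.0477 without Lenti-AS 1 and -0.26 without Lenti-AS 2. Ppib, the cyclophilin of the prolyl 3-hydroxylase complex, had 688 and 715 CPM in Lenti-GFP against 596 and 575 CPM in Lenti-AS (log2 fold change -0.26, SE 0.05, edgeR adjusted p = 0.0755). P4ha3, a further alpha subunit, had 1.63 and 1.71 CPM in Lenti-GFP against 1.35 and 0.811 CPM in Lenti-AS, with a log2 fold change of -0.62 and an SE of 0.29. It was called without Lenti-AS 1 (-1.04, edgeR adjusted p = 0.0156) and was -0.31 without Lenti-AS 2. P4hb, the partner of the alpha subunits, was picked out after its values were seen and had 1477 and 1546 CPM in Lenti-GFP against 1318 and 1315 CPM in Lenti-AS (log2 fold change -0.20, edgeR adjusted p = 0.119).

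The list for folding and exit from the endoplasmic reticulum held 0 called genes of 11 tested by edgeR, 5 with an unadjusted p under 0.05, all lower (9.37% of all genes), and 1 called by DESeq2, Fkbp7. Of the 5, Sec23a, Fkbp14 and Fkbp9 are named because of their values and had log2 fold changes of -0.26, -0.24 and -0.15. For 9 of the 11 the groups did not overlap and Lenti-AS was lower, as in 27.2% of all genes, and the median log2 fold change was -0.17. Fkbp7, a prolyl isomerase of the endoplasmic reticulum, had 72.6 and 75.8 CPM in Lenti-GFP against 61.5 and 52.1 CPM in Lenti-AS (log2 fold change -0.39, SE 0.10, edgeR adjusted p = 0.105), and edgeR called it without Lenti-AS 1, at -0.51. Sec13, a coat subunit of the vesicles that leave the endoplasmic reticulum, had 144 and 143 CPM in Lenti-GFP against 119 and 118 CPM in Lenti-AS (log2 fold change -0.28, edgeR adjusted p = 0.0594).

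Among the enzymes that act outside the cell the directions were mixed. Among 4 other lysyl oxidases 0 were called by edgeR, against 1.98% of all genes, and 0 by DESeq2. The 1 with an unadjusted edgeR p under 0.05 was Loxl1, against 21.8% of all genes. Loxl1, which acts on elastin as well as collagen, had 140 and 137 CPM in Lenti-GFP against 171 and 166 CPM in Lenti-AS (log2 fold change 0.28, SE 0.05, edgeR adjusted p = 0.0594). Loxl3 had 42.8 and 43.9 CPM in Lenti-GFP against 47.7 and 46.7 CPM in Lenti-AS, a log2 fold change of 0.12 that did not pass. Lox and Loxl4, named after their values were seen, had log2 fold changes of -0.10 and -0.43, at only 22 to 41 counts per sample. The list median was 0.0118 and turned to -0.13 without Lenti-GFP 1 and -0.0506 without Lenti-AS 2. It became 0.21 when genes under 1 CPM were left out. In the list for procollagen processing, of 8 genes tested 6 had a higher fitted level and 2 a lower one, where 48.7% of all genes were lower. The median log2 fold change was 0.29, which became 0.10 when genes under 1 CPM were left out. Pcolce, which enhances removal of the carboxy-terminal propeptide, had 23.0 and 23.5 CPM in Lenti-GFP against 34.0 and 27.6 CPM in Lenti-AS (log2 fold change 0.41, SE 0.11, edgeR adjusted p = 0.114). DESeq2 called Pcolce (0.41, adjusted p = 0.0209), as did edgeR without Lenti-AS 2 (0.55), while without Lenti-AS 1 the change was 0.25 and not called.

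**Figure D3:**
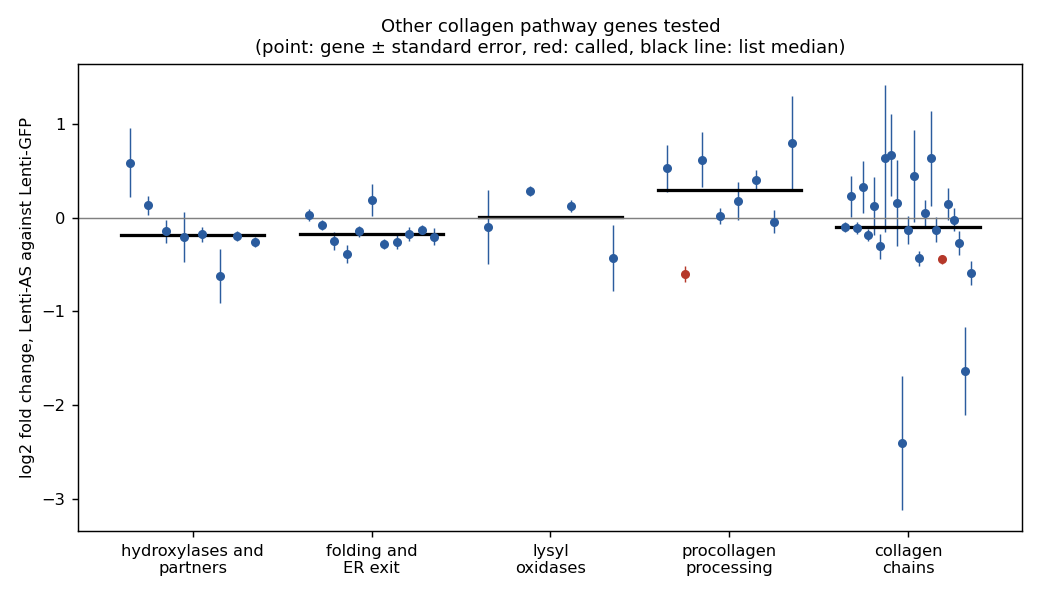
Fitted log2 fold change, Lenti-AS against Lenti-GFP, of each tested gene in 4 collagen maturation lists and the list of collagen chains, with standard errors as bars, called genes in red and list medians as black lines. The medians are -0.19, -0.17, 0.0118, 0.29 and -0.10 from left to right, and Adamts2 and Col5a2 are the called genes.

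The substrates were examined last. Of 43 collagen chain genes listed, 26 have a row and 23 were tested. Of these 1 was called, Col5a2, which was lower, against 1.98% of all genes in either direction and 0.667% lower. DESeq2, which called 627 of all 12446 genes, also called Col3a1 and Col9a2, at log2 fold changes of -0.44 and -0.59. At an unadjusted edgeR p under 0.05 stood 6 chains, all lower (9.37% of all genes). The groups did not overlap with Lenti-AS lower for 10 chains (27.2% of all genes) and with Lenti-AS higher for 1. The median log2 fold change of the 23 chains was -0.10, and it turned to 0.0218 without Lenti-GFP 1. Col5a2, a chain of the fibril-nucleating type V collagen, had 3740 and 3781 CPM in Lenti-GFP against 2784 and 2739 CPM in Lenti-AS (log2 fold change -0.45, SE 0.05, edgeR adjusted p = 0.0252). The call was lost without Lenti-GFP 1, without Lenti-GFP 2 and with the replicate block. Col5a1 and Col5a3, type V chains named after their values were seen, had log2 fold changes of -0.13 and 0.15 with overlapping groups. The type I chains differed between the Lenti-AS samples. Col1a2 had 155 and 133 CPM in Lenti-GFP against 340 and 120 CPM in Lenti-AS, and Col1a1, which was singled out after its values were seen, had 840 and 721 CPM in Lenti-GFP against 2131 and 290 CPM in Lenti-AS. The Lenti-AS samples thus differed 7.35-fold in Col1a1 and 2.84-fold in Col1a2, against 1.17-fold and 1.16-fold between the Lenti-GFP samples. The 9 measured genes of the set differed at most 1.23-fold between the Lenti-AS samples, the largest being Serpinh1, which like the type I chains was higher in Lenti-AS 1.

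**Figure D4:**
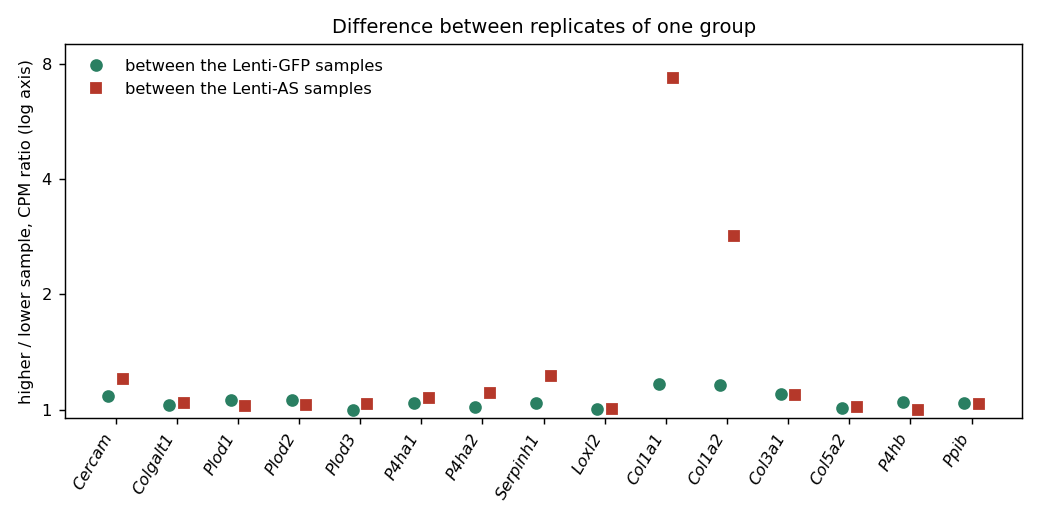
Ratio of the higher to the lower sample of a group (CPM, log axis) for the 9 measured genes, 4 collagen chains, P4hb and Ppib, with circles for the Lenti-GFP samples and squares for the Lenti-AS samples. All points lie under 1.3 except the Lenti-AS ratios of Col1a1 (7.35) and Col1a2 (2.84).

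Plod1, Plod2, P4ha1, P4ha2 and Loxl2 are known targets of hypoxia-inducible factors, and a list of 20 hypoxia response genes was set beside them. Of 18 tested, 0 were called by edgeR, against 1.98% of all genes, and 1 by DESeq2, Pfkfb3. At an unadjusted edgeR p under 0.05 stood 3 of the 18, against 21.8% of all genes. These were Egln3, Pfkfb3 and, named for its value, Ndrg1. The median log2 fold change of the list was -0.04. Egln3, an oxygen-sensing hydroxylase, had 2.84 and 2.67 CPM in Lenti-GFP against 1.78 and 1.68 CPM in Lenti-AS, while the glycolytic regulator Pfkfb3 had 13.8 and 12.4 CPM in Lenti-GFP against 18.0 and 18.2 CPM in Lenti-AS (log2 fold changes -0.67 and 0.47, SEs 0.18 and 0.09, edgeR adjusted p = 0.118 and 0.0645). EdgeR called both in the fits without Lenti-AS 1 and without Lenti-AS 2.

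Fibroblasts are the other nerve cells that make much collagen. All 12 fibroblast marker genes have a row, and their summed level was 10478 to 10689 CPM in Lenti-GFP and 6675 to 8696 CPM in Lenti-AS. Of the 7 tested, Postn and Col3a1, which SCs also express, were the 2 with a lower fitted level, and the median log2 fold change was 0.11. Postn fell from 6165 and 6426 CPM to 3795 and 3579 CPM (log2 fold change -0.77, edgeR adjusted p = 0.0144), a call lost without Lenti-GFP 1 and without Lenti-GFP 2. Pdgfrb and Mfap5, named after their values were seen, had log2 fold changes of 0.02 and 0.11 with overlapping groups. The defining markers Dcn, Lum, Thy1, Fap and Tcf21 had at most 6 counts in any sample, and Pdgfra had 3.08 to 4.07 CPM over the 4 samples and the groups overlapped. Cercam is named after endothelial cells, and of 8 endothelial markers 7 lay under 0.5 CPM in every sample, with at most 6 counts for the defining Cdh5, Cldn5 and Emcn, while Tek had 19.8 and 20.2 CPM in Lenti-GFP against 15.3 and 14.7 CPM in Lenti-AS. The endothelial sum was 21.1 to 21.3 CPM in Lenti-GFP and 15.9 to 16.3 CPM in Lenti-AS, and that of 8 macrophage markers, was 3.30 to 3.41 and 3.97 to 4.42 CPM. The part of these marker sums in the values above was not tested.

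By the distance between log2(CPM + 1) values centred over the 4 samples, the genes most like Cercam were Efna2 (distance 0.146), Pitx1 (0.535), Vsig10 (0.695), Hoxd3 (0.698) and Gfra3 (1.16). They were found by their likeness to the fall, so their values are a description. Efna2, an ephrin ligand of Eph receptors, had 28.0 CPM in each Lenti-GFP sample against 4.06 and 4.04 CPM in Lenti-AS. The homeobox gene Pitx1 had 4.96 and 4.94 CPM in Lenti-GFP against 0.548 and 0.466 CPM in Lenti-AS. Vsig10 had 48.0 and 48.5 CPM in Lenti-GFP against 14.0 and 10.6 CPM in Lenti-AS. Another homeobox gene, Hoxd3, had 16.2 and 15.2 CPM in Lenti-GFP against 1.68 and 0.798 CPM in Lenti-AS. Gfra3, the receptor of the glial factor artemin, had 50.4 and 48.3 CPM in Lenti-GFP against 19.2 and 18.8 CPM in Lenti-AS. None of the 5 is a collagen chain or belongs to the collagen maturation lists. Of the 12446 genes tested only 23 are in the chain list and 31 in the maturation lists. Their absence among 5 genes was therefore likely beforehand, and nothing is concluded from it.

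The 4 neighbours of Cercam on chromosome 3 that could be tested had log2 fold changes from -0.03 to 0.59. On the GRCr8 gene order, used for order only, the nearest genes with a row on the one side are Urm1, Slc27a4 and Coq4. Urm1, a ubiquitin-like sulphur carrier, had 3.06 and 3.11 CPM in Lenti-GFP against 6.001 and 3.26 CPM in Lenti-AS, with the higher level resting on Lenti-AS 1 (log2 fold change 0.59, edgeR adjusted p = 0.301, and 0.08 without that sample). Slc27a4, a fatty acid transporter, and Coq4, of coenzyme Q synthesis, had log2 fold changes of 0.05 and -0.03 with overlapping groups. On the other side Odf2, a centriole protein gene, had 65.6 and 66.1 CPM in Lenti-GFP against 72.9 and 79.9 CPM in Lenti-AS (log2 fold change 0.21, SE 0.07, edgeR adjusted p = 0.176). Mir219-2 and Mir2964, precursor rows that lie within the span of Cercam, had 0 counts in all 4 samples, which allows up to 0.0316 to 0.0399 CPM at a limit of 3 counts per sample, and a fall could not be measured for them.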

How the data were processed

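Gene counts from 2 Lenti-GFP and 2 Lenti-AS cultures of rat SCs were used. Paired-end reads of 50 bp were aligned to rn6, with hisat2 per the study's methods and with GSNAP per the submitters' processing notes. The values deposited by the authors are raw counts per RefSeq gene from featureCounts, not normalized. Strand and multi-mapping settings are not given in the sources used here. A repeated header row was dropped. Samples were assigned from titles and column names.

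Genes reaching 10 counts in 2 or more samples entered edgeR 4.0.16 (R 4.3.3) with TMM factors, glmQLFit with default settings and glmQLFTest, without a replicate term, with Benjamini-Hochberg adjustment over all genes. Standard errors come from the F statistic and 95% intervals from the t distribution with the fit's degrees of freedom. Alternatives were DESeq2 1.42.0, limma-voom (limma 3.58.1), the newer quasi-likelihood fit, the likelihood ratio test, RLE and upper-quartile factors, library totals, 2 other filters, a replicate block, each sample left out in turn, a fit without globin genes and other cut-offs. The code was tested on simulated data. The members and lists were chosen with earlier results of these data known. Named are the members, called genes of the lists (at most 4 each, or the largest changes at a mean normalized count of at least 100 until 2 are named), the 5 genes nearest to Cercam and its neighbours. Sequences and gene order are RefSeq's, on GRCr8. P-values measure only the spread between these samples.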

Additional observations from a re-analysis of the deposited data

How the results depend on the processing

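Of the genes in the set, the sign of the fitted change was the same in all 15 alternatives for each but Serpinh1, which turned to 0.0712 without Lenti-AS 2 (leaving out 1 sample gave -0.22 to 0.0712). Cercam ranged from -3.23 to -2.97 with 1 sample left out. Plod2 lost its call with the replicate block (-0.46) and in the fits without either Lenti-GFP sample (-0.50 to -0.42 over the 4 fits), and P4ha2, -0.42 to -0.28, gained one without Lenti-AS 2. The number of the 8 genes called was 1, with 0 under the replicate block and 0 to 2 with 1 sample left out. Fits of 3 samples assume that the lone sample varies like the other group. Replicate numbers share no stated culture, and the deviations of samples with the same number had a correlation of -0.0176 across genes. With a limit of 1.5-fold Plod2, at 1.38-fold, would also lose its call. No other setting changed a call among the 8. The causes of these changes were not tested.

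Over all genes, 246 were called (163 higher, 83 lower). DESeq2 called 627 (488 and 139), the likelihood ratio test 521 (374 and 147), the replicate block 17 (3 and 14), and a fold change of at least 1.5 left 124. With 1 sample left out the counts were 1 to 1519 (0 to 1266 higher, 1 to 271 lower), the 2 fits without a Lenti-GFP sample giving 1 gene each and those without Lenti-AS 1 and Lenti-AS 2 giving 841 and 1519. Among collagen chains the count of 1 became 3 with DESeq2, 2 with limma-voom, 5 with the likelihood ratio test, 2 with RLE factors, 2 with no low-count filter, 0 with the replicate block and 0 to 8 with 1 sample left out. For procollagen processing it became 2 with DESeq2, 0 with the block and 0 to 3 with 1 sample left out. The count of 0 became 1 with DESeq2 for folding and exit (0 to 1 with 1 sample left out) and for hypoxia (1 also with the likelihood ratio test, 0 to 2 with 1 sample left out), and 0 to 1 with 1 sample left out for hydroxylases.

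List medians moved by more than the replicate spread as follows. With library totals, which moved the median of all genes to 0.0389, they were -0.14 for folding and exit, -0.0042 for hypoxia, 0.0080 for heat shock (reversed) and 0.32 for procollagen processing. With upper-quartile factors they were -0.0127 for heat shock and 0.30 for processing. At least 1 CPM in 2 samples gave -0.0449 for heat shock, 0.21 for lysyl oxidases and 0.10 for processing. Processing was 0.28 with limma-voom and 0.27 with the replicate block. With 1 sample left out the ranges were -0.14 to 0.0218 for collagen chains, -0.18 to -0.13 for folding and exit, -0.0585 to -0.0057 for heat shock, -0.26 to -0.0477 for hydroxylases, -0.13 to 0.20 for lysyl oxidases and 0.18 to 0.44 for processing. The lysyl oxidase median was -0.13 without Lenti-GFP 1 and -0.0506 without Lenti-AS 2. Genes whose sign reversed with 1 sample left out were Col1a2 (-0.27 to 1.24) and Sox10 (-0.29 to 1.12) without Lenti-AS 1, Coq4 (-0.13 to 0.0722) without Lenti-GFP 1, and Slc27a4 (-0.0315 to 0.13) and the globin gene Hbe1 (-0.0329 to 12.97) without Lenti-AS 2.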
